A study of Mus musculus with 9 samples.

Results

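Tumour-associated macrophages are described here that carried RNA of Mrc1, the gene of the mannose receptor CD206. They were chosen by their own counts. A barcode entered the gate when it had more than 500 and fewer than 7500 detected genes, less than 15% of its unique molecular identifiers (UMIs, each standing for 1 captured RNA molecule) from mitochondrial genes, no UMI of the tumour reporter H2BMc, Krt8, Cd3e or Pecam1, and at least 1 UMI of at least 2 of the 5 genes C1qa, C1qb, C1qc, Csf1r and Adgre1. Of 89147 deposited barcodes, 58645 passed the filters on genes and mitochondrial UMIs, 659 entered the gate, and 281 of these had at least 1 Mrc1 UMI. The remaining 378 gate cells had none and are called Mrc1-zero cells.

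The cells came from 9 single-cell libraries of mammary tumours. Mouse 168FARN mammary tumour cells marked with an H2B–mCherry reporter were grown in the mammary fat pad of female BALB/c mice, with 3 libraries each of wild-type (WT), Kmt2c knockout (KO) and Kmt2d KO tumours. The knockout lines were made with pooled guides and Cas9 and were sorted pools rather than clones, so the libraries of a group repeat the tumour and not the making of the knockout line. Macrophages are host cells: those of every group were unedited for Kmt2c and Kmt2d, and the groups differ in the tumour cells around them. Kmt2c RNA was found in the Mrc1-positive cells at 50.0 to 93.1 CPM (counts per 1000000 UMIs) in WT, 75.5 to 99.2 in Kmt2c KO and 85.6 to 106 in Kmt2d KO tumours. In cells with tumour markers it was at 45.7 to 47.1 CPM in WT and 39.6 to 51.9 CPM in Kmt2c KO, and Kmt2d RNA was at 14.4 to 20.4 CPM in WT and 23.3 to 30.4 CPM in Kmt2d KO, so neither transcript was lower in its own knockout beyond the spread of the libraries. Transcript counts do not show small insertions or deletions made by a guide, and the values therefore do not check the knockout.

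Macrophages engulf dead cells and debris, present antigen and secrete chemokines. CD206 is an endocytic lectin that binds mannose on glycoproteins, and it is used as a marker of resident and of interleukin-4-stimulated (alternatively activated) macrophages. Interferons drive a different set of macrophage genes: type I interferon switches on antiviral genes such as Isg15, and interferon gamma switches on guanylate-binding proteins, the chemokines Cxcl9 and Cxcl10, and the genes that load peptides onto MHC class I.

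The depth of the libraries ranged from 21529691 to 125617312 UMIs, and the Mrc1-positive cells held 46739 to 161362 UMIs per library. The WT libraries lost 26.6 to 68.5% of their barcodes to the mitochondrial filter, against 13 to 29.5% in Kmt2c KO and 23.5 to 27.2% in Kmt2d KO, and WT libraries 1 and 3, at 50.7 and 68.5%, were the most heavily filtered of the 9. Of 84658 distinct barcode sequences, 4365 occurred in more than 1 library. No Mrc1-positive cell shared its barcode with an Mrc1-positive cell of another library, and 25 of the 281 shared one with some barcode elsewhere.

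The macrophage label was checked against genes that the gate did not use. Of 10 further markers, among them Tyrobp, Fcer1g, Cd68, Lyz2, Ptprc and Ctss, at least 4 were detected in 264 of the 281 Mrc1-positive cells (94.0%) and in 263 of the 378 Mrc1-zero cells (69.6%). Their summed level was 18029 CPM in Mrc1-positive cells, 8781 CPM in Mrc1-zero cells and 13.6 CPM in tumour-gate cells. Tumour-gate cells are those past the filters with a UMI of both H2BMc and Krt8 and none of Ptprc. Ptprc is among the 10 further markers, so its absence from that sum was fixed by the choice of cells. The 7 tumour markers counted beside H2BMc and Krt8 summed to 1.03 CPM in Mrc1-positive cells and to 0.252 CPM in tumour-gate cells, so they do not measure tumour RNA here. Summed fibroblast markers were at 43.4 CPM there (0 to 114 across libraries), endothelial markers at 21.7, mural at 9.29, T cell at 10.3, NK cell at 6.20, mast cell at 17.6, neutrophil at 51.6 and dendritic cell markers at 74.3 CPM. B cell markers were the highest of the other lists, at 138 CPM (97.9 to 112 in WT, 99.2 to 389 in Kmt2c KO and 85.2 to 193 in Kmt2d KO), and came mostly from Ighm, found in 68 of the 281 cells (24.2%).

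Mrc1 itself was spread unevenly over the chosen cells. It was counted at 1 UMI in 94 cells, at 2 or more in 187 and at 4 or more in 93, with a median of 2 and a highest value of 43. The level in Mrc1-positive cells lay between 776 and 1433 CPM in the 9 libraries, with a median of 989. Complement C1q, whose 3 chains bind dying cells and immune complexes, was abundant: C1qa ranged from 2945 to 7011 CPM, C1qb from 3176 to 6621 and C1qc from 2438 to 6621. Csf1r, the receptor for the growth factor of macrophages, was at 545 to 1220 CPM and Adgre1, the gene of F4/80, at 171 to 460. These genes set the gate, so their levels are given without a test. All 5 were found in 115 Mrc1-positive cells and 2 of 5, the least the gate admits, in 35. Just outside, 82 cells with an Mrc1 UMI had exactly 1 of the 5 genes and none of the 4 excluded ones, and 72 with an Mrc1 UMI were set aside for a UMI of an excluded gene, 36 of them for Pecam1 alone. A further 106 cells with an Mrc1 UMI had none of the 5 genes and none of the excluded ones, and 683 of the 58645 kept cells had an Mrc1 UMI in all. In the tumour-gate cells, 0 to 0.872% per library had one (the library at 0 had 1568 such cells, which allows a share of up to 0.191%), although their median depth was 9985 to 24858 UMIs against 2748 in Mrc1-positive cells.

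Depth differed between the classes and between the groups. The median Mrc1-positive cell had 2748 UMIs and 1443 genes, and the median Mrc1-zero cell 2015.5 UMIs and 1060.5 genes. Among libraries, the median depth of Mrc1-positive cells was 3279 to 3968 UMIs in WT, 1907 to 2514 in Kmt2c KO and 2650 to 4625.5 in Kmt2d KO. The Mrc1-positive share of the gate, the Mrc1 level and the gene comparisons in Mrc1-positive cells were therefore repeated after thinning cells to 1000 UMIs. Cells with fewer than 1000 UMIs were left out there. The Mrc1 classes were set again on the thinned counts, so a cell that lost its Mrc1 UMIs counted as Mrc1-zero.

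The first comparison asked whether the tumour genotype went with the share of gate cells that carried Mrc1. In WT tumours 20 of 25, 25 of 40 and 33 of 53 gate cells were Mrc1-positive, shares of 80.0, 62.5 and 62.3%. In Kmt2c KO tumours 22 of 66, 56 of 163 and 49 of 150 were, shares of 33.3, 34.4 and 32.7%. Every Kmt2c KO library lay below every WT library. The Kmt2d KO libraries were scattered, with 45 of 68, 18 of 61 and 13 of 33 cells, or 66.2, 29.5 and 39.4%, and overlapped both other groups. The mean was 68.3% ± 10.2 (SD, n = 3) for WT, 33.5% ± 0.851 for Kmt2c KO and 45.0% ± 19.0 for Kmt2d KO.

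The differences did not pass their tests. The Kmt2c KO mean was 34.8 percentage points below WT (two-sided exact permutation p = 0.1, the smallest that 3 against 3 libraries allow, Benjamini-Hochberg adjusted p = 0.30 over 3 pairs). Kmt2d KO was 23.2 points below WT (exact permutation p = 0.3, adjusted p = 0.40) and 11.6 points above Kmt2c KO (exact permutation p = 0.4, adjusted p = 0.40). Over the 3 groups together an exact permutation of the Kruskal-Wallis statistic gave p = 0.168, where 0.00357 is the smallest possible. The order of the group means was WT, Kmt2d KO, Kmt2c KO after thinning to 1000 UMIs as well, at 51.3, 31.4 and 23.6% (exact permutation p = 0.296). With the gate restricted to cells with at least 4 of the 10 further markers, an alternative added after the values were seen, it was 69.8, 58.7 and 39.7% (exact permutation p = 0.025).

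**Figure D1:**
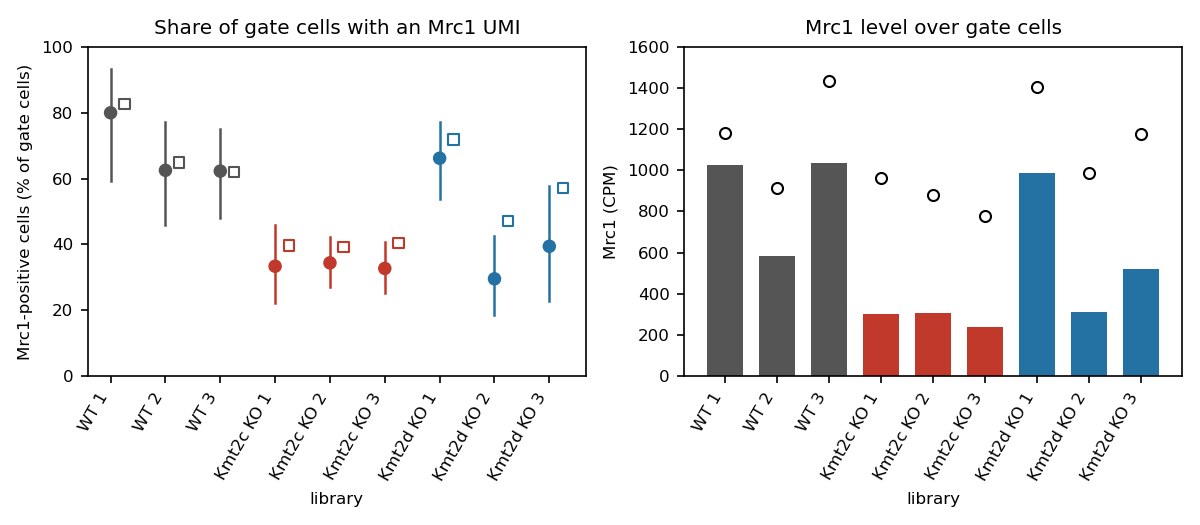
Left, the percentage of gate cells with at least 1 Mrc1 UMI in each library (filled points, bars are 95% Clopper-Pearson intervals for counting error only) and the same share among gate cells with at least 4 of 10 further macrophage markers (open squares). Right, Mrc1 in CPM over all gate cells (bars) and over Mrc1-positive cells (open circles). The 3 Kmt2c KO libraries sit at 32.7 to 34.4% and 239 to 305 CPM, below all WT libraries on both measures, while Kmt2d KO library 1 lies among the WT libraries.

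Mrc1 RNA over all gate cells, which were not chosen by Mrc1, gave a second view. It was at 1025, 581 and 1035 CPM in WT, 301, 305 and 239 CPM in Kmt2c KO and 986, 313 and 519 CPM in Kmt2d KO libraries. Mrc1 fell by 1.59 on the log2 scale in Kmt2c KO against WT (edgeR quasi-likelihood test, Benjamini-Hochberg adjusted p = 0.0188). The log2 difference was -0.50 for Kmt2d KO against WT (edgeR adjusted p = 0.565) and 1.09 for Kmt2d KO against Kmt2c KO (edgeR adjusted p = 0.299). The Kmt2c KO call was lost when WT library 1 (edgeR adjusted p = 0.0771), WT library 3 (0.0670) or Kmt2c KO library 1 (0.0528), 2 (0.0673) or 3 (0.0972) was left out, and when the deepest 10% of cells were (0.116, log2 difference -1.14). After thinning to 1000 UMIs the log2 difference was -1.52 (edgeR adjusted p = 0.0220). It shrank to -1.15 (0.0103) with at least 4 of the 10 further markers and to -1.01 (0.0172) with at least 4 of the 5 gate genes. Without Kmt2d KO library 2 the difference between the knockouts reached 1.43 (edgeR adjusted p = 0.0176). Mrc1-positive cells as a share of all kept cells were at 2.08% ± 1.28 (SD, n = 3) for WT, 0.547% ± 0.324 for Kmt2c KO and 0.365% ± 0.344 for Kmt2d KO. The exact permutation over the 3 groups gave p = 0.05, and each knockout against WT an exact permutation adjusted p of 0.15. The whole gate was also a smaller share of kept cells in the knockouts, at 3.14% ± 2.18 for WT, 1.64% ± 0.985 for Kmt2c KO and 0.743% ± 0.466 for Kmt2d KO (exact permutation over the 3 groups p = 0.168).

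The second comparison set the Mrc1-positive cells against the Mrc1-zero cells of the same libraries, to learn which other genes went with Mrc1. Mrc1-positive cells had more RNA of resident and scavenger genes (Pf4, Selenop, Maf), of chemokines (Ccl8, Ccl12, Ccl6), of the scavenging receptors Msr1 and Trem2 and of the endocytic adaptor Dab2. Of 1604 genes tested, 196 were higher in Mrc1-positive cells (12.2%) and 175 lower (10.9%) by edgeR's quasi-likelihood test with the library as a block, at an adjusted p below 0.05, and the median log2 difference of all genes was -0.05. WT library 1, with 5 Mrc1-zero cells, was left out, so 8 libraries entered. How far this contrast is one between macrophages depends on the gate. RNA that was higher in tumour-gate cells than in Mrc1-positive cells made up 160 of the 175 lower genes and 0 of the 196 higher ones. Of all 1604 genes, 882 remained when those higher in tumour-gate cells, by levels pooled over libraries, were left out. Among cells with at least 4 of the 10 further markers 10 of 1189 genes were called, and among cells with at least 4 of the 5 gate genes 0 of 1074 were by edgeR (90 at an unadjusted p below 0.05). These fits also held fewer libraries, since each library needed at least 10 cells of both classes. The further-marker fit lost Kmt2d KO library 3, and the fit with 4 of the 5 gate genes lost that library and every WT library. The part of the lost libraries in the lower counts was not tested. After thinning to 1000 UMIs 17 of 312 genes were called, among them 13 of the 127 whole-gate calls tested again, and without the deepest 10% of cells 52 were. The thinned fit lacked Kmt2d KO libraries 2 and 3 and held WT library 1. The number of calls in the whole gate was 173 without Kmt2c KO library 2, 178 without Kmt2c KO library 3 and 236 without Kmt2d KO library 2.

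The 10 calls that remained in the marker-rich cells had all been called in the whole gate. The genes higher were Pf4 (log2 difference 2.04), Psd3 (2.02), Selenop (1.40), Maf (1.17), Frmd4b (1.14), Cltc (1.00) and Dab2 (0.96). Lower were Ly6c2 (-2.53), the surface antigen of classical monocytes, Ccl5 (-2.09) and the histone gene H2afv (-1.27). Of the whole-gate calls tested again, 293 of 308 kept their sign in these cells, 217 of 285 in the gate of 4 of 5 genes and 112 of 127 after thinning to 1000 UMIs.

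Pf4, a platelet-type chemokine made by resident macrophages, had the highest log2 difference of the called genes in the whole gate. It was at 687, 351, 102, 378, 130, 1278, 441 and 449 CPM in Mrc1-positive cells of WT libraries 2 and 3, Kmt2c KO libraries 1 to 3 and Kmt2d KO libraries 1 to 3. In the Mrc1-zero cells of the same libraries it was at 43.8, 168, 27.9, 72.4, 24.4, 200, 0 and 50.6 CPM. Pf4 was thus higher in Mrc1-positive cells in 8 of 8 libraries, by 2.66 ± 0.37 (SE) on the log2 scale (edgeR adjusted p = 0.00037).

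Selenop, the gene of a secreted selenium carrier, behaved alike, at 266 to 1037 CPM in Mrc1-positive and 29.8 to 267 CPM in Mrc1-zero cells, a log2 difference of 1.95 ± 0.27 (edgeR adjusted p = 0.00037, 8 of 8 libraries). Dab2, an endocytic adaptor, was higher by 1.52 ± 0.17 (edgeR adjusted p = 0.000131) and Maf, a transcription factor of mature macrophages, by 1.76 ± 0.26 (edgeR adjusted p = 0.000503), each in 8 of 8 libraries. The other genes selected by size and sign were Slc9a9 (1.77), Frmd4b (1.76), the urokinase gene Plau (1.66), the monocyte chemoattractant Ccl12 (1.61), the kinase gene Prkcb (1.52), the integrin gene Itga9 (1.50), the UDP receptor gene P2ry6 (1.45) and Ms4a4a (1.36), all higher in 8 of 8 libraries. In the marker-rich cells these log2 differences had the same sign but shrank, to 0.84 for Plau and 0.65 for Ms4a4a.

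Ccl8, a chemokine, draws monocytes and T cells. Its mean was 4169 CPM in Mrc1-positive and 795 CPM in Mrc1-zero cells, a log2 difference of 2.28 ± 0.53 (edgeR adjusted p = 0.00822), with 7 of 8 libraries higher. The exception was WT library 3, where Ccl8 was at 179 and 802 CPM. Ccl7 (1.61), Ccl6 (1.58) and the elastase gene Mmp12 (1.65) were also called higher. In the WT libraries of this fit, however, Ccl7 was lower in Mrc1-positive than in Mrc1-zero cells. Its class difference depended on the tumour genotype (edgeR interaction adjusted p = 0.0276), as given further below. Apoe, which carries lipid, was at 3032 to 11922 CPM in Mrc1-positive cells over all libraries and was 1.31 higher on the log2 scale. The scavenger receptor genes Msr1 (1.32) and Trem2 (1.24) and the lectin gene Mgl2 (1.01) were higher too, Mgl2 turning to -0.36 in the gate of 4 of 5 genes.

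The genes lower in Mrc1-positive cells were led by Spp1, the gene of osteopontin, at 100 to 1409 CPM against 317 to 6260 CPM in the Mrc1-zero cells of the 8 libraries (log2 difference -3.21 ± 0.36, edgeR adjusted p = 0.000131). Fibronectin Fn1 (-2.56), Nedd4, Phlda1, Pcolce, the tetraspanin gene Cd9 (-2.28), Actn1, Tubb4b, H1f0 (-1.87), S100a4 (-1.87), Tuba1a and Serpinf1 completed the selected genes. All were higher in the tumour-gate cells than in the Mrc1-positive cells: Spp1 was at 8165 CPM, S100a4 at 3292, Fn1 at 2993 and Cd9 at 1291 CPM. The part of tumour RNA or of tumour-macrophage mixtures in this contrast was not tested beyond the restricted gates.

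By function, the gene lists showed the following, beside the median of -0.05 over all 1604 genes and the shares of 12.2% called higher and 10.9% lower, near which several lists lie. These counts are those of the whole gate, where the stricter gates, over fewer libraries, left 10 and 0 calls. Of 15 complement and phagocytic receptor genes 11 were higher and 0 lower (median 0.85), of 17 lysosomal and matrix genes 8 and 0 (0.51), of 8 chemokine and growth factor genes 5 and 0 (1.34), and of 5 resident and scavenger genes 4 and 0 (1.76). MHC class II genes had 4 of 11 higher and 0 lower (0.51), while Cd74, the invariant chain, was at a log2 difference of 0.51 and missed the threshold (edgeR adjusted p = 0.0531). Of 6 alternative activation genes 4 were higher and 1, Fn1, lower (1.16). Type I interferon genes had 0 of 15 higher and 4 lower (-0.49), interferon gamma genes 1 of 17 higher and 2 lower (0.22), MHC class I genes 0 of 18 higher and 1 lower (-0.17), monocyte genes 1 of 8 higher and 3 lower (-0.21) and lipid and damage genes 2 and 2 of 9 (-0.13). Iron handling genes had 3 of 5 higher and 1 lower (0.47), inflammatory genes 2 of 7 and 1 (0.48), immediate early genes 0 of 10 and 1 (0.12), cell cycle genes 0 of 4 and 1 (-0.61) and hypoxia genes 0 of 6 called (-0.12).

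**Figure D2:**
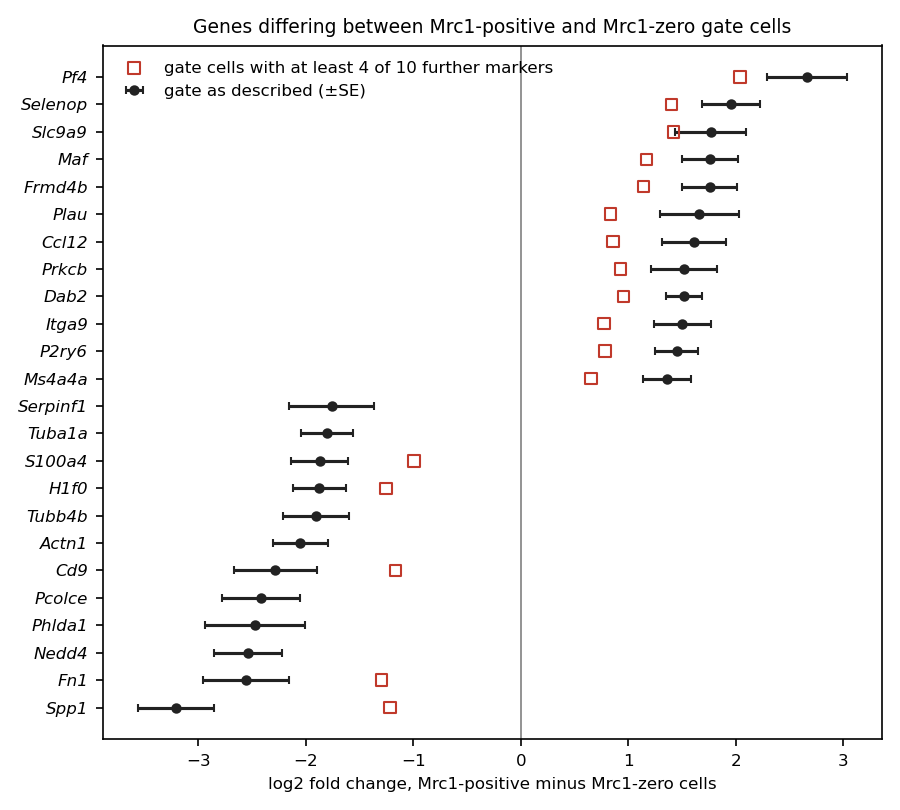
Log2 fold changes between Mrc1-positive and Mrc1-zero gate cells for the 12 genes of each direction that were called, had the same sign in all 8 libraries and had the largest size. Points with SE bars are the whole gate and open squares the gate cells with at least 4 of 10 further markers (genes without a square were not tested there). Squares lie nearer 0 than the points for all genes shown that have both, as for Spp1 at -1.22 against -3.21.

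The third comparison asked how the Mrc1-positive cells themselves differed with the genotype of the tumour, on UMIs summed per library, and began with Kmt2c KO against WT. The cells of Kmt2c KO tumours had higher RNA of interferon-induced and MHC class I genes, and lower RNA of single macrophage genes such as Mgl2, F13a1 and Fcrls. Of 2320 genes tested in 1 fit over all 9 libraries, 119 were higher (5.13%) and 35 lower (1.51%) by edgeR's quasi-likelihood test, and the median log2 difference was -0.01. The groups also differed in 2 measures of the cells, whose part in the result was not tested beyond thinning: the median share of mitochondrial UMIs in Mrc1-positive cells was 5.15, 5.27 and 5.41% in WT against 3.77, 4.07 and 3.90% in Kmt2c KO, and the median depth was lower in every Kmt2c KO library than in every WT library. The CPM values of the groups did not overlap for 117 of the 119 and for 35 of the 35, beside 581 of all 2320 genes (25%). Each of the 154 genes kept its sign in every alternative in which it was tested, but fewer were called in some of them. After thinning to 1000 UMIs 25 of 705 genes were called, among them 23 of the 83 tested again, and with at least 2 Mrc1 UMIs per cell 75 were. The number of calls was 40 without Kmt2c KO library 3 (36 of them among the 154), 58 without WT library 1 (55), 71 without WT library 3 (64), 88 without Kmt2c KO library 2 (83) and 94 without Kmt2c KO library 1 (85). DESeq2 called 72 higher and 17 lower, 88 of them shared with edgeR.

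**Figure D3:**
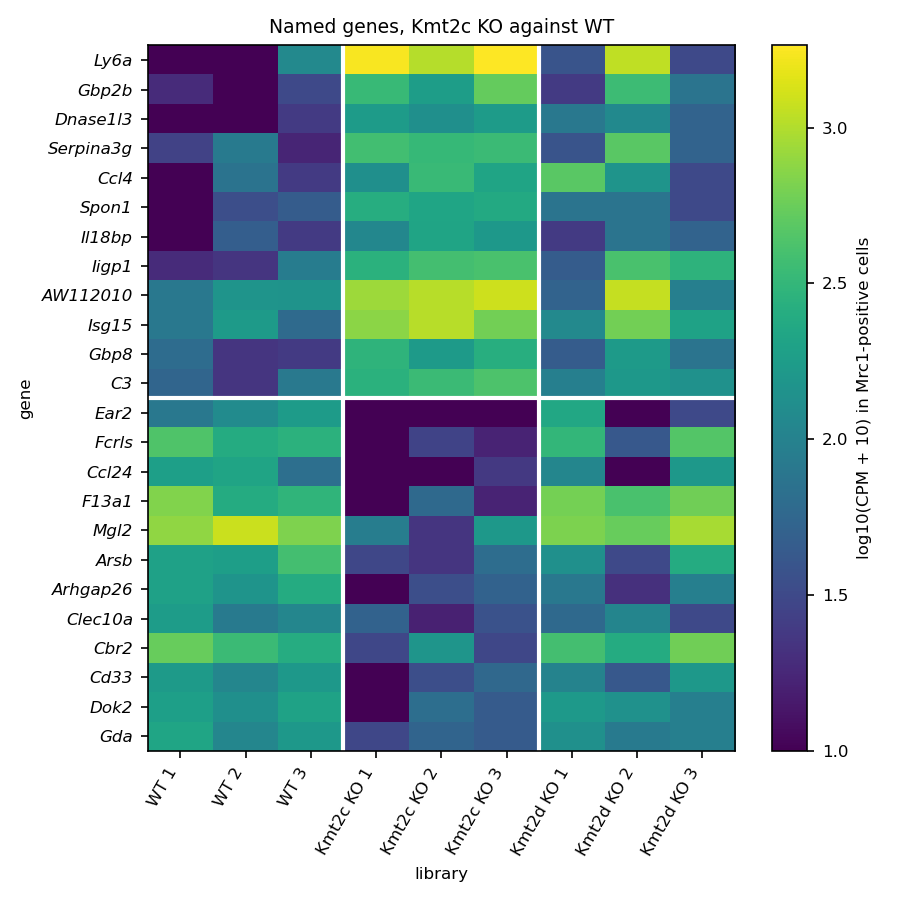
Level of each selected gene in the Mrc1-positive cells of each library, as log10(CPM + 10) by colour. The upper 12 genes are higher and the lower 12 lower in Kmt2c KO than in WT without overlap. In the Kmt2d KO columns, library 2 is bright for Ly6a, Serpina3g and AW112010, where libraries 1 and 3 are dark, and library 2 alone is dark for Fcrls and Ccl24.

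The antiviral genes of type I interferon were higher as a group: 16 of 21 tested were called higher and 0 lower, with a median log2 difference of 1.87. Isg15, a ubiquitin-like protein gene, was at 71.2, 162 and 50.1 CPM in WT and 738, 1041 and 590 CPM in Kmt2c KO, and the groups were far apart. Its log2 difference was 3.22 ± 0.56 (SE; edgeR adjusted p = 0.00397). Irf7, a transcription factor that amplifies interferon production, was at 187, 387 and 380 CPM in WT and 1578, 1295 and 1071 in Kmt2c KO (2.10 ± 0.37, edgeR adjusted p = 0.00408). Bst2, the gene of tetherin, rose by 1.87, Ifit3 by 2.56, Ifit2 by 2.27 and Rsad2, the gene of viperin, by 1.85. Summed over the list, the level was 4474 to 6504 CPM in WT and 10571 to 12618 CPM in Kmt2c KO.

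Interferon gamma genes went the same way, with 12 of 19 called higher, 0 lower and a median of 2.33. Gbp2b, a guanylate-binding protein gene, was at 8.90, 0 and 21.5 CPM in WT and 328, 174 and 529 CPM in Kmt2c KO (4.77 ± 0.94, edgeR adjusted p = 0.00807). Cxcl9, which draws T cells, was at 62.3, 400 and 158 CPM in WT and 1312, 1066 and 1249 in Kmt2c KO, a log2 difference of 2.67 ± 0.62 (edgeR adjusted p = 0.0197). All Kmt2c KO libraries of each gene lay above all WT libraries. Cxcl10 rose by 2.59, the GTPase gene Iigp1 by 3.27, Socs1, a brake on cytokine signalling, by 2.77, Gbp2 by 2.65, Irf1 by 2.07 and Cd274, the gene of PD-L1, by 2.33. The list sum was 1530 to 1855 CPM in WT and 5701 to 7427 CPM in Kmt2c KO.

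MHC class I genes had 12 of 19 called higher, 0 lower and a median of 1.14. H2-K1 was at 1824, 2499 and 2092 CPM in WT and 4817, 4728 and 4221 CPM in Kmt2c KO (1.16 ± 0.20, edgeR adjusted p = 0.00378). H2-T23 rose by 1.89, Nlrc5, the activator of class I transcription, by 2.05, the peptide transporter gene Tap1 by 1.30 and H2-D1 by 0.89, while B2m was at 0.74 and missed the threshold (edgeR adjusted p = 0.132). MHC class II genes had 0 of 11 called, with a median of 0.06: the log2 difference was -0.14 for Cd74, 0.06 for H2-Ab1 and 0.10 for Ciita, the class II activator. The class II list summed to 33660 to 53751 CPM in WT and 33552 to 44219 CPM in Kmt2c KO, and the groups overlapped.

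The type I interferon, interferon gamma and MHC class I lists also differed in the tumour-gate cells. There the type I interferon list summed to 2208 to 2527 CPM in WT and 8580 to 10682 CPM in Kmt2c KO, and the interferon gamma list to 409 to 488 and 2098 to 3142 CPM. The MHC class I list summed there to 8606 to 8995 CPM in WT and 18959 to 20197 CPM in Kmt2c KO. Its sums in Mrc1-positive cells were near these, at 8951 to 11598 CPM in WT and 18224 to 19968 CPM in Kmt2c KO. The part of tumour RNA in the macrophage values was not tested. Of the 119 higher genes, 12 were at a higher CPM in Kmt2c KO tumour-gate cells than in the Mrc1-positive cells of those tumours, and 44 were below 10% of the Mrc1-positive level there. Cxcl9 was at 3.92 CPM in Kmt2c KO tumour-gate cells, Serpina3g at 0.473 and Fcgr4 at 1.55 CPM. Of all 2320 genes tested, 1413 remained when those higher in tumour-gate cells, by levels pooled over all libraries, were left out, and 133 of the 1413 were called. No share over all genes was counted for the bound of 10%.

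**Figure D4:**
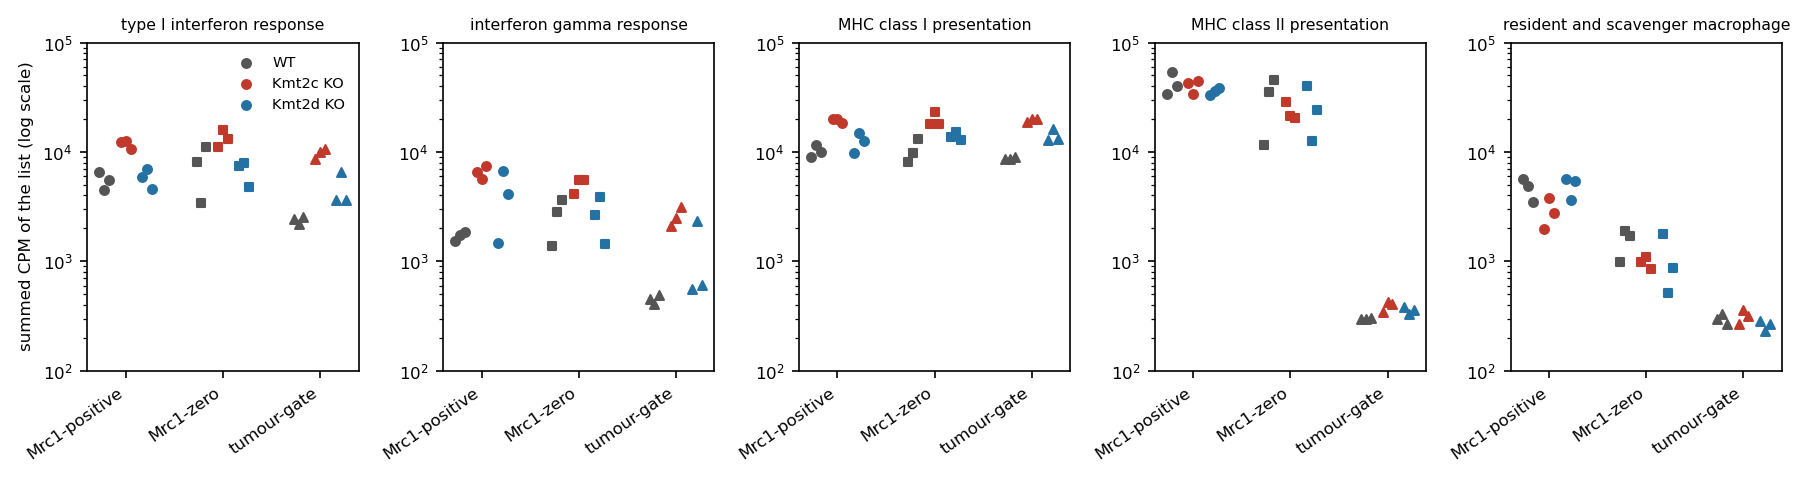
Summed CPM of 5 gene lists per library (log scale) in Mrc1-positive cells (circles), Mrc1-zero cells (squares) and tumour-gate cells (triangles), coloured by group. In Mrc1-positive cells the 3 Kmt2c KO libraries lie above the 3 WT libraries for the type I interferon, interferon gamma and MHC class I lists, and the groups overlap for MHC class II.

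Ly6a, the gene of the surface protein Sca-1, had the highest log2 difference of the called genes. It was at 0, 0 and 107 CPM in WT and 1742, 1010 and 1826 CPM in Kmt2c KO, a log2 difference of 5.16 ± 1.06 (edgeR adjusted p = 0.00943), and was at 1112 CPM in the Kmt2c KO tumour-gate cells. Dnase1l3, a secreted nuclease gene that was below 1 CPM in tumour-gate cells, was at 0, 0 and 14.3 CPM in WT and 164, 124 and 165 in Kmt2c KO (4.45 ± 0.69, edgeR adjusted p = 0.00244). The other genes selected for size were the serpin gene Serpina3g (3.60), the chemokine Ccl4 (3.46), Spon1 (3.40), the interleukin-18 inhibitor gene Il18bp (3.36), AW112010 (3.24), Gbp8 (3.05) and complement C3 (2.94). Of the Fc receptor genes tested, Fcgr4 (2.41) and Fcgr1 (1.38) were higher, while Fcgr2b (-0.06), Fcgr3 (-0.08), Fcer1g (0.33) and Fcgrt (-1.10) were not called. Complement factor B Cfb (1.68) and the sialic acid receptor gene Siglec1 (1.84) were higher as well.

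Among the genes lower in Kmt2c KO, Mgl2, a galactose lectin gene, was at 756, 1200 and 659 CPM in WT and 82.0, 12.4 and 151 CPM in Kmt2c KO. It fell by 3.37 on the log2 scale (SE 0.50, edgeR adjusted p = 0.0021). F13a1, the clotting factor XIII chain that perivascular macrophages express, was at 667, 237 and 294 CPM in WT and 0, 49.6 and 6.86 CPM in Kmt2c KO, and fell by 3.90 (SE 0.59, edgeR adjusted p = 0.0021). The Kmt2d KO values of these genes overlapped those of WT, Mgl2 at 646, 538 and 920 CPM and F13a1 at 603, 398 and 578 CPM. Summed over the 8 dendritic cell markers, of which Itgae was at 0, the Mrc1-positive cells had 7.16 to 311 CPM in WT, 0 to 12.4 in Kmt2c KO and 21.4 to 170 in Kmt2d KO, mostly from Cd209a, found in 12 cells. WT and Kmt2c KO overlapped, and the part of dendritic cell RNA in the lower lectin genes was not tested.

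Fcrls, an Fc receptor-like gene, was at 427, 237 and 272 CPM in WT and 0, 18.6 and 6.86 in Kmt2c KO, and fell by 4.62 (SE 0.79, edgeR adjusted p = 0.00378). Ear2, a ribonuclease gene, had 40 UMIs in the WT libraries and 0 in the Kmt2c KO libraries, which is at least 14.3-fold lower when 0 is set to a floor of 3 counts over the group. Ear2 is one of a family of near-identical genes whose reads the counting could split. Ccl24 (-4.32), the sulphatase gene Arsb (-2.93), Arhgap26 (-2.67), the lectin gene Clec10a (-2.40), the carbonyl reductase gene Cbr2 (-2.27), Cd33 (-2.09), Dok2 (-2.04) and the guanine deaminase gene Gda (-2.00) made up the rest.

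Of 14 resident and scavenger genes, 4 fell (F13a1, Cbr2, Clec10a and Gas6, the last by 1.76) and 1, Siglec1, rose, with a median of -0.94. The other members did not follow as calls: Pf4 had a log2 difference of -1.29 (edgeR adjusted p = 0.138), Folr2 of -1.11 (0.167), Stab1 of -0.78 (0.343), Selenop of -0.63 (0.419) and Maf of -0.39 (0.504). Of 8 alternative activation genes 3 fell (Mgl2, Ccl24 and Clec10a) and 0 rose, with a median of -0.11. Of 9 inflammatory activation genes 3 rose (Ccl4, Cxcl9 and Cxcl10), with a median of 1.29, Il1b having a log2 difference of -0.48 (edgeR adjusted p = 0.747).

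The remaining lists are read beside the 5.13% of all genes called higher and 1.51% called lower, and most rest on 1 to 4 called genes. Complement and phagocytic receptors had 4 of 21 higher and 1, Cd33, lower (median 0.19), chemokines and growth factors 2 of 12 higher and 1 lower (0.18), immediate early genes 3 of 14 higher (0.75) and cell cycle genes 1 of 7 lower (-0.93). The immediate early genes were Jun (2.10), Fos (1.60) and Klf2 (1.90), which tissue dissociation also induces, and the dividing-cell gene was Mki67, which fell by 1.62. Monocyte genes had 2 of 7 higher (0.08), among them Plac8 (2.60), and hypoxia and glycolysis genes 1 of 9, Pkm (1.01; list median 0.60). Iron handling genes had 1 of 7, Blvrb (1.37; 0.76), lysosomal genes 1 of 18, Ctsc (0.83; 0.27), and lipid and damage genes 0 of 10 (0.04).

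None of the genes that the study used for macrophages and their states was called among those tested in these cells. In Kmt2c KO against WT the log2 difference was -0.05 for Itgam, -0.08 for Fcgr3 and -1.01 for Cd14, which it used for macrophages in general. Of its genes for the inflammatory state, Cd68 was at 0.02, Ccl5 at 2.08 (edgeR adjusted p = 0.136) and Socs3 at 1.29 (edgeR adjusted p = 0.0796). Of its genes for the alternative state, Mrc1 was compared only over all gate cells, as given above. Vegfa and Cd200r1 were too low to test: they were found in 20 and 40 of the 281 cells.

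In Mrc1-zero cells of the gate, 7 of 1876 genes were called for the same contrast by edgeR. That fit had WT libraries 2 and 3 only, and the Mrc1-positive fit without WT library 1 gave 58 calls, so the counts are not alike in their libraries. It was not repeated after thinning. The medians of the lists there were 0.92 for type I interferon, 0.81 for interferon gamma and 0.69 for MHC class I genes. Whether a genotype difference depended on the Mrc1 class was tested by an interaction term, which passed for 2 of 3202 genes (0.0625%), Igfbp4 and Ccl7 (edgeR, 205 at an unadjusted p below 0.05). The interferon genes named here were not among them.

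Short promoter stretches of 8 interferon-induced genes, chosen because they hold a match, show what 2 interferon-related motifs look like there. They come from RefSeq (build GRCm38.p6), are written 5′ to 3′ on the strand of the gene, lie before the transcription start, and carry in capitals every match to 2 copies of GAAA with any 2 bases between them, the interferon-stimulated response element, or to TTCNNNGAA, the gamma-activated site, on either strand (overlapping matches are merged).
Isg15, chr4:156200860-156200911, minus strand: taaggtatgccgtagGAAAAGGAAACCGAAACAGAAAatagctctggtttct
Ifit3, chr19:34583358-34583431, plus strand: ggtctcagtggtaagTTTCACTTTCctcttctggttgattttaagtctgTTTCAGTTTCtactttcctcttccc
Cxcl10, chr5:92349078-92349117, minus strand: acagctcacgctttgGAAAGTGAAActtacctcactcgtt
Gbp2b, chr3:142594695-142594734, plus strand: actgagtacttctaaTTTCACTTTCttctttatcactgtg
Gbp2, chr3:142620589-142620628, plus strand: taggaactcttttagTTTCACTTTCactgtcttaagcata
Socs1, chr16:10785589-10785634, minus strand: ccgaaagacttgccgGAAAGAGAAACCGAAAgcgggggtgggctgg
H2-T23, chr17:36032801-36032840, minus strand: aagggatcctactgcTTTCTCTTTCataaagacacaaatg
Irf1, chr11:53769909-53769947, plus strand: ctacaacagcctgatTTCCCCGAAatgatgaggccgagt

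Isg15 has 3 overlapping matches to the response element, and the match shown for Irf1 is to the gamma-activated site. The windows searched ran from 250 bases before to 50 after the start. The response element was found for 1079 of 27025 genes with a window (3.99%), for 105 of 1853 matched among the genes tested (5.67%), for 19 of 89 matched among those higher in Kmt2c KO (21.3%) and for 0 of 24 matched among those lower. The gamma-activated site was found for 9.55% of all genes, for 15 of the 89 (16.9%) and for 1 of the 24. Among tested members of the lists, the response element was found for 10 of 17 matched type I interferon genes and 9 of 16 interferon gamma genes, 4 of 17 MHC class I genes and 1 of 8 MHC class II genes. Among the members called higher in Kmt2c KO it was found for 6 of 13 type I interferon, 5 of 10 interferon gamma and 2 of 11 MHC class I genes. These shares describe letters in the windows and were not tested, and the part of these sequences in the differences was not tested.

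In Kmt2d KO tumours the Mrc1-positive cells gave no calls against WT: 0 of 2320 genes (0%) passed by edgeR's quasi-likelihood test, with 152 at an unadjusted p below 0.05, and DESeq2 called 1. The CPM values of the groups did not overlap for 250 genes (10.8%). This comparison shares its WT libraries with the previous one. The smallest p-values were those of Ccl7, Spp1, Dnase1l3, Ccl4 and Def8. Ccl7, a monocyte chemoattractant, was at 133, 162 and 201 CPM in WT and 866, 1505 and 193 CPM in Kmt2d KO (2.46 ± 0.48, edgeR adjusted p = 0.213), and 1 Kmt2d KO library lay within the WT range. Spp1 had a log2 difference of 3.32 (edgeR adjusted p = 0.296), with 8591 CPM in the Kmt2d KO tumour-gate cells, Dnase1l3 of 3.51, Ccl4 of 3.51 and Def8 of 1.41.

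The Kmt2d KO libraries differed among themselves. Ly6a was at 28.4, 1097 and 21.4 CPM, Cxcl9 at 206, 1559 and 449 CPM and AW112010 at 42.6, 1140 and 85.6 CPM in libraries 1, 2 and 3 of Kmt2d KO. The interferon gamma list summed to 1462, 6645 and 4108 CPM in their Mrc1-positive cells and to 558, 2330 and 603 CPM in their tumour-gate cells. Library 2 also had the lowest Mrc1-positive share of the 9, 29.5%, and the deepest Mrc1-positive cells. Interferon gamma genes had a median log2 difference of 1.32 and MHC class I genes of 0.39 in Kmt2d KO against WT, with 0 of 19 called in each list.

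**Figure D5:**
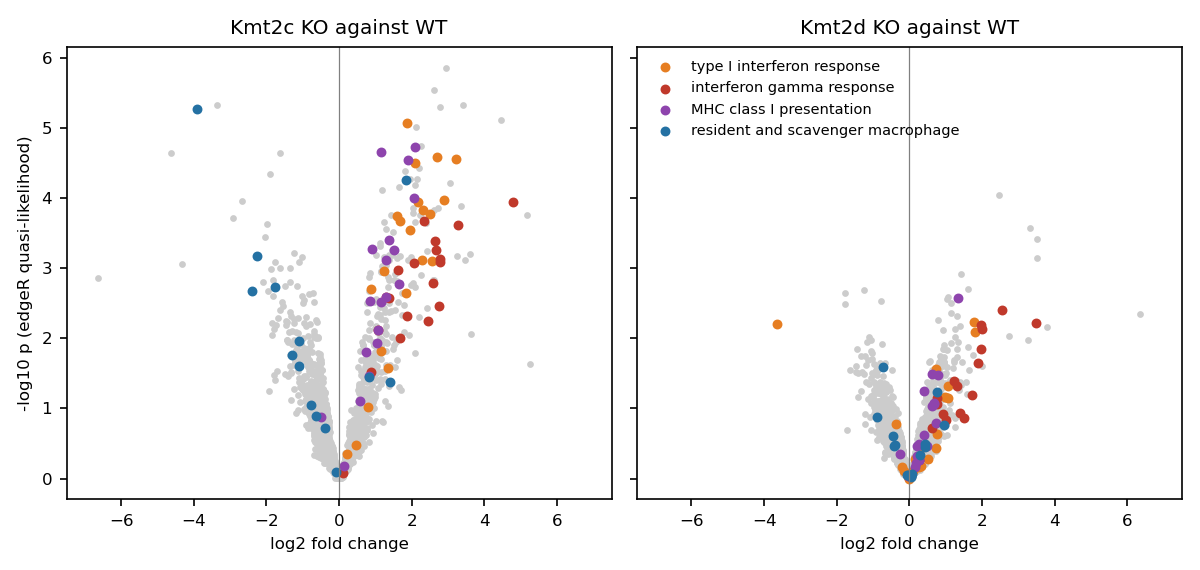
Log2 fold change against -log10 of the unadjusted edgeR p for the 2320 genes tested in Mrc1-positive cells, Kmt2c KO against WT on the left and Kmt2d KO against WT on the right, with 4 gene lists coloured. Most type I interferon, interferon gamma and MHC class I genes lie to the upper right on the left panel, and no gene passes the adjusted threshold on the right panel.

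Set against each other, the knockouts differed in 21 of 2320 genes by edgeR: 5 were higher (0.216%) and 16 lower (0.69%) in Kmt2d KO. The 5 were F13a1 (4.32), Fcrls (4.29), Mgl2 (3.07), Ahnak (1.66) and Crip1 (1.30). Those lower included Rsad2 (-5.49), at 143, 229 and 220 CPM in Kmt2c KO and 0, 10.8 and 0 CPM in Kmt2d KO, Xaf1 (-2.42), Irf7 (-1.73), Parp14 (-1.71) and Ly6e (-1.68), which are all interferon-induced, and Rasgef1b (-2.24), Inpp4b (-2.21), Aoah (-2.07), Tor3a (-2.03), Spon1 (-1.98), Apobec1 (-1.72) and Pde7b (-1.68). Type I interferon genes had 4 of 21 lower and a median of -1.23, and interferon gamma genes 0 of 19 called and a median of -0.74. The number of calls rested on single libraries: it was 1 without Kmt2d KO library 1 or 3, 3 without Kmt2c KO library 3, 8 without Kmt2c KO library 1, 33 without WT library 2, 38 without WT library 1 and 79 without Kmt2d KO library 2.

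The Mrc1-positive cells were not uniform. Folr2, a folate receptor gene of resident macrophages, was found in 38 of the 281. These cells were deeper, with a median of 4233.5 UMIs against 2514 in the other 243, and the following levels are given as CPM, not thinned and without a test. Ccl8 was at 11167 CPM with and 1994 CPM without a Folr2 UMI, Pf4 at 1507 and 258, Selenop at 1352 and 383, F13a1 at 960 and 125 and Stab1 at 708 and 243. The direction held in 7 of 9 libraries for Ccl8 and F13a1, in 8 of 9 for Pf4 and Stab1 and in 9 of 9 for Selenop. Cells with Folr2 had less RNA of the antigen presentation gene Cd74 (9437 against 17865 CPM, higher in 3 of 9 libraries) and of Mmp12 (38.8 against 401, in 0 of 9). Cbr2 split the cells likewise: 67 cells had a UMI, with Pf4 at 1263 against 194 CPM and H2-Ab1 at 2610 against 6689, and Mgl2 ran against it, at 297 against 592 CPM and higher in 0 of 9 libraries.

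Genes of the alternative activation list ranged from rare to common. Arg1, the arginase gene, was found in 14 Mrc1-positive cells, Retnla in 6 and Chil3 in 2. Tgfb1 was found in 151 of the 281, Ccl8 in 150, Msr1 in 118 and Il4ra in 83. Lyve1, a marker of vessel-associated resident macrophages and not a member of that list, was found in 3. Mgl2 was found in 90 of the 281 and Cd200r1 in 40, against 36 and 8 of the 378 shallower Mrc1-zero cells. At this depth a cell without a UMI cannot be called free of the gene.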

How the data were processed

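Single-cell 5′ gene expression libraries were made with 10x Genomics chemistry from dissociated tumours. Per the labels, the authors used Cell Ranger 7.0.1 with genome build mm10 to deposit UMI counts per gene and barcode, aggregated over libraries; the sources used here do not give the annotation, nor whether aggregation evened out depth. Counts entered every fit as deposited. Library groups were read from the letters of the aggregation table, and library numbers are its order only. Nothing ties libraries to numbered replicates, and where separate animals are not stated p-values measure the spread between these libraries.

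The 281 cells and all gene lists were chosen with earlier results of these data known. UMIs were summed per library and cell class and tested with edgeR 4.0.16 (quasi-likelihood, filterByExpr, TMM, R 4.3.3) over libraries with at least 10 cells, with DESeq2 1.42.0 as an alternative; p-values were Benjamini-Hochberg adjusted over all genes tested, and the 10 gate genes stayed in library sizes but were not tested, except Mrc1 over all gate cells. No doublet caller was run; leaving out the 10% of cells with the most UMIs stood in for it. CPM are UMIs per 1000000 of the summed cells, and the SE was obtained by dividing a log2 fold change by the square root of its F. Sequencing depth differs between libraries, and intervals cover counting error only. For each comparison up to 12 called genes per direction of largest size were named that had the same sign in every library or no overlap between groups; under 6 calls, the 5 with the smallest p; and the macrophage genes of the study. The further-marker gate, the Folr2, Cbr2 and Mrc1 splits of the cells and the promoter search were chosen after the values were seen, as were genes named outside this rule. Counts were also simulated from the mean profile of the Mrc1-positive cells over all libraries, with a fixed, assumed spread between libraries. Of the 200 genes changed in each run, only those that passed the low-count filter are counted in these shares. For Kmt2c KO against WT, 2 of 139 2-fold changes (1.44%) and 132 of 159 4-fold changes (83.0%) were recovered, with 0 and 9 false calls. For Mrc1-positive against Mrc1-zero cells it was 49 of 90 (54.4%) and 126 of 126 (100%), with 2 and 6 false calls. The spread was not estimated from these libraries, so the shares do not give the power of the fits above. Alternatives were other gates, 2 Mrc1 UMIs, thinning to 1000 or 2000 UMIs, other cell minimums, no low-count filter, 2 groups per fit, no genes higher in tumour-gate cells and each library left out. Some members of the marker and gene lists are counted in the sums but not reported by name here.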

Additional observations from a re-analysis of the deposited data

Results flagged for a closer look

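For 2 genes the genotype difference depended on the Mrc1 class by a test of the interaction itself, in edgeR's quasi-likelihood fit over 3202 genes. For Igfbp4, an insulin-like growth factor binding protein gene, the adjusted p was 0.0159: relative to WT, the log2 difference of Mrc1-positive minus Mrc1-zero cells was changed by -3.39 in Kmt2c KO and by -1.77 in Kmt2d KO. Igfbp4 was at 102, 341 and 103 CPM in Mrc1-positive and 800, 2052 and 907 CPM in Mrc1-zero cells of Kmt2c KO, and at 162 and 208 CPM against 153 and 112 CPM in WT libraries 2 and 3. It was at 867, 1638 and 1109 CPM in the tumour-gate cells of WT, Kmt2c KO and Kmt2d KO, above its level in Mrc1-positive cells, and was not tested where genes higher in tumour-gate cells were left out. The part of tumour RNA in the difference was not tested.

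For Ccl7 the edgeR adjusted p was 0.0276, with a class difference 2.49 higher in Kmt2c KO and 4.51 higher in Kmt2d KO than in WT. Ccl7 was at 162 and 201 CPM in Mrc1-positive and 526 and 205 CPM in Mrc1-zero cells of WT libraries 2 and 3, and at 866, 1505 and 193 CPM against 117, 89.5 and 0 CPM in Kmt2d KO. With any 1 of the Kmt2c KO libraries left out 0 genes passed by edgeR (116 to 181 at an unadjusted p below 0.05). With 2 Mrc1 UMIs or the deepest cells left out 0 passed (124 and 105 unadjusted). With the further-marker gate neither gene passed (edgeR adjusted p = 0.783 for Igfbp4 and 0.0569 for Ccl7), and the 1 call there was another gene. Ccl7 was also lost without Kmt2d KO library 2 (edgeR adjusted p = 0.324). Without WT library 2 or 3, or with at least 20 cells, WT was left with 1 library, so only the terms of Kmt2c KO and Kmt2d KO are given. For Igfbp4 they were -2.95 and -1.32 without WT library 3. For Ccl7 they were 1.72 and 3.78 without WT library 2, and 1.69 and 2.96 with at least 20 cells. After thinning to 1000 UMIs Kmt2d KO was left with 1 library, and the same terms were 1.21 and 2.41 for Ccl7 and -1.63 and -0.26 for Igfbp4. Both genes kept the sign of their terms in all these fits, and DESeq2 called both (adjusted p = 0.00562 for Ccl7 and 0.0122 for Igfbp4). The cause was not tested. WT entered with 2 libraries, since WT library 1 had 5 Mrc1-zero cells.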

How the results depend on the processing

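No paired analysis was possible because the libraries are tied to no replicate numbers; the library block used above pairs cell classes within a library. For Mrc1-positive against Mrc1-zero cells (371 calls) the count was 234 with 2 Mrc1 UMIs, 10 with the further-marker gate, 0 in edgeR with the gate of 4 of 5 genes, 117 with at least 20 cells, 930 with no low-count filter, 215 (198 higher, 17 lower) with no gene higher in tumour-gate cells, 17 after thinning to 1000 UMIs, 52 without the deepest 10% of cells and 173 to 485 with 1 library left out. Among the named genes alone, signs turned for Mgl2 (-0.36), Fcgr3 (-0.081), Cd14 (-0.10), Gbp2 (0.12) and Jun (0.13) in the gate of 4 of 5 genes and for Jun (0.012) after thinning. Over all calls tested again, 217 of 285 kept their sign in that gate and 112 of 127 after thinning. For Kmt2c KO against WT (154) it was 75 with 2 Mrc1 UMIs, 89 by DESeq2, 249 with no filter, 25 of 705 after thinning and 40 to 168 with 1 library left out. For Kmt2d KO against WT (0) it was 1 with 2 groups per fit, 3 with the gate of 4 of 5, 1 by DESeq2, 5 with at least 20 cells (where Kmt2d KO is 1 library, assumed to vary like the others), 58 with no filter, 3 after thinning and 0 to 3 with 1 library left out. For Kmt2d KO against Kmt2c KO (21) it was 2 with 2 Mrc1 UMIs, 35 with 2 groups per fit, 2 with the gate of 4 of 5, 106 with no filter, 13 after thinning and 1 to 79 with 1 library left out. With at least 20 cells Kmt2d KO was 1 library here too, and no count is given. The interaction (2) gave 0 with 2 Mrc1 UMIs, 1 (neither Igfbp4 nor Ccl7) with the further-marker gate, 39 with at least 20 cells, 19 with no filter, 1 with no gene higher in tumour-gate cells, 0 after thinning, 0 without the deepest cells (105 unadjusted) and 0 to 4 with 1 library left out; with the gate of 4 of 5 genes it could not be fitted. The Mrc1-positive share over 3 groups gave an exact permutation p of 0.0107 with the gate of 4 of 5 genes and with 2 Mrc1 UMIs, 0.025 after thinning to 2000 UMIs and with the further-marker gate, and 0.0607 to 0.357 with 1 library left out. The Mrc1 log2 difference of Kmt2c KO against WT was -1.14 without the deepest cells and -1.82 to -1.46 with 1 library left out, and that between the knockouts 0.54 to 1.43. Thinning and the stricter gates leave fewer cells and genes, and in some fits fewer libraries. The cause was otherwise not tested. Of the named genes' values, 765 of 895 between the Mrc1 classes and 1161 of 1486 in Kmt2c KO against WT stayed on their side of the threshold; the rest kept their sign below it except those given. Depth limits what could be called: single libraries held 13 to 56 Mrc1-positive cells.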

Other observations

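The amount of Mrc1 within the chosen cells went with some other macrophage genes and not with others, given here as levels without a test. The 187 cells with at least 2 Mrc1 UMIs had a median depth of 3313 UMIs and the 94 with 1 UMI of 1963.5. Selenop was at 681 CPM in the former and 345 in the latter, and higher in 9 of 9 libraries, Folr2 at 152 and 22.7 (9 of 9), Cbr2 at 335 and 53.0 (8 of 9) and Pf4 at 623 and 261 (8 of 9). The monocyte gene Ly6c2 ran the other way, at 34.1 and 129 CPM (higher in 1 of 9), as did Mmp12 at 241 and 545 (2 of 9). Mgl2 was at 500 CPM and 504 CPM, and higher in 6 of 9 libraries. Apoe, at 6105 and 5875 CPM, and Trem2, at 236 and 208 CPM, were each higher in 5 of 9. The antigen presentation genes Cd74, at 15029 and 18846 CPM, and H2-Ab1, at 5087 and 6338 CPM, were each higher in 2 of 9.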
